A study of Homo sapiens with 10 samples.

Results

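The lysosome and proton pump genes described here were 49 listed genes of lysosomal acidification and digestion, found by gene symbol among 18404 genes measured on Affymetrix arrays, and all 49 had a probe set. They comprised 14 subunits of the V-ATPase, 2 accessory pump subunits, 7 membrane and cholesterol export proteins, 9 glycosidases, 4 sulfatases, 6 proteases, 5 lipid enzymes and activators, and 2 transcription factors. Of IDS, the one member with more than 1 probe set, the brightest by its mean across the 10 arrays was used. The study transfected HEK-293 cells, a line derived from human embryonic kidney and transformed with adenovirus DNA, with small interfering RNAs (siRNAs) against the long non-coding RNAs LOC440173 and PAXIP1-AS1, and took total RNA 48 hours later.

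Each of the 5 groups had 2 arrays: a control siRNA at 10 nM, siRNA 1 against LOC440173 at 10 nM, siRNA 2 against the same RNA at 10 nM, a siRNA against PAXIP1-AS1 at 100 nM, and the control siRNA at that higher dose. All groups were the same unmodified cell line in low-glucose medium with serum, and all received a commercial siRNA duplex with the same lipid reagent. The control duplex has a confidential sequence, PAXIP1-AS1 was targeted by a single duplex, and the arrays show cells at a single time after transient transfection. The labels call the arrays of a group biological replicates without saying how the cultures were kept apart, so p-values measure only the spread between these samples. The smallest p that an exact permutation of 2 against 2 arrays allows is 0.333, so the tests below rest on the spread pooled over all groups.

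Lysosomes are acidic compartments in which hydrolases digest proteins, sugars, lipids and nucleic acids delivered by endocytosis and autophagy. The V-ATPase acidifies them: its cytosolic V1 sector hydrolyses ATP and turns a rotor that drives protons through the membrane-embedded V0 sector. TFEB and TFE3 are related transcription factors that bind E-box-containing elements in promoters of many lysosomal genes, and the mTORC1 kinase at the lysosome holds them in the cytoplasm when nutrients are plentiful.

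Values are log2 expression levels, and a difference of 1 is a 2-fold change. The level of LOC440173 itself (LINC02893 in the current annotation) was 8.48 and 8.60 on the arrays of the control at 10 nM, 7.72 and 7.43 with siRNA 1, and 6.71 and 6.59 with siRNA 2. It was 8.50 and 8.60 with the control at 100 nM and 8.54 on both arrays with the PAXIP1-AS1 siRNA. The LOC440173 labels and the level of their target thus went together, with 51.4% of the control level left with siRNA 1 and 27.0% with siRNA 2. The level of PAXIP1-AS1 was not analysed here. Correlations between the arrays of a group were 0.994 to 0.997. Of the members, 44 lay at or above the median level of all genes, 7.66, and 5 lay below it (CTSZ, MANBA, IDUA, TFEB and SMPD1), where a probe set may respond less to its transcript. Of 11 measured HEK-293 markers 8 lay above that median, against 0 of 8 for macrophages, 1 of 6 for fibroblasts, 0 of 4 for hepatocytes and 0 of 4 for epidermis. The mean level of the macrophage markers was 5.36 and 5.59 on the arrays of the control at 10 nM, 5.65 and 5.71 with siRNA 1, and 5.51 to 5.62 on the other arrays. With siRNA 1, 1 macrophage, 1 fibroblast and 1 hepatocyte marker were called higher and 1 epidermis marker lower. Of all genes, 12.1% were called higher and 16.7% lower with this siRNA. With siRNA 2 and the PAXIP1-AS1 siRNA 0 of these 22 markers were called by limma, and 5 and 1 had an unadjusted p under 0.05. The HEK-293 markers moved too: their mean level was 9.36 on both arrays of the control at 10 nM, 9.23 and 9.24 with siRNA 1, and 9.24 and 9.29 with siRNA 2. Of the 11, 3 were called lower and 1 higher with siRNA 1, beside 16.7% and 12.1% of all genes. With siRNA 2, 6 were lower and 2 higher, beside 17.4% and 12.5%. Their mean level was 9.34 and 9.40 with the control at 100 nM and 9.15 and 9.18 with the PAXIP1-AS1 siRNA. That siRNA lowered 3 of the 11, beside 1.76% of all genes. Their part in the results below was not tested.

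With siRNA 2, 30 of the 49 genes fell and 6 rose, led by a fall of ATP6V0D1 to 17.4% of the control level. A gene is called here where the limma adjusted p, Benjamini-Hochberg over all 18404 genes, was under 0.05. The 30 falls were 61.2% of the members, beside 17.4% of all genes called lower by this siRNA, and the 6 rises were 12.2%, beside 12.5% of all genes. Among the 44 members at or above the median level, 28 fell (63.6%, beside 26.9% of all genes of that brightness) and 6 rose (13.6%, beside 20.2%). The members' median log2 change was -0.26, and that of all genes was 0.01. Falls of 2-fold or more were called in 3 of the 49 members, all among the 44. They were called in 218 of all 18404 genes (1.18%) and in 174 of the 9202 at or above the median level. In these bulk cultures, fewer cells of a type and less RNA per cell cannot be told apart.

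With siRNA 1 these 49 genes went both ways: 14 fell and 11 rose, and the members' median change was 0.00, beside 0.05 for all genes. The falls were 28.6% of the members, beside 16.7% of all genes called lower, and the rises 22.4%, beside 12.1% called higher. Among the 44 brighter members 14 fell (31.8%, beside 26.6% of the brighter genes) and 11 rose (25%, beside 17.2%), so the share that fell was near the background. Falls of 2-fold or more were called for ATP6AP1 and ATP6AP2, 2 of the 49 members. They were called in 194 of all 18404 genes (1.05%) and in 153 of the 9202 brighter genes. The count of rises was 7 without replicate 2 of the control at 10 nM, 6 without replicate 1 of siRNA 1 and 5 without its replicate 2. The count of falls was 9 without either siRNA 1 array.

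Both LOC440173 siRNAs were compared with the same control arrays, so their direct contrast is the test of where they differed. Levels were lower with siRNA 2 than with siRNA 1 for 27 members (55.1%, beside 19% of all genes) and higher for 11 (22.4%, beside 18.2%). Among the 44 brighter members 25 were lower (56.8%, beside 28.3% of the brighter genes) and 11 higher (25%, beside 29.9%). The median difference was -0.23 over the members and -0.05 over all genes.

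**Figure D1:**
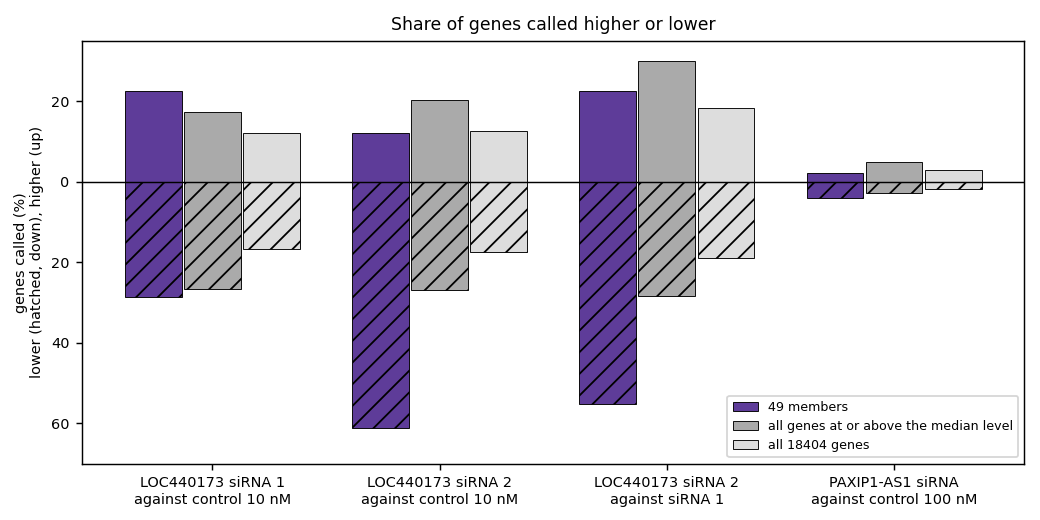
Share of genes called higher (upward bars) or lower (hatched, downward bars) in 4 comparisons, in percent, for the 49 members (purple), all genes at or above the median level (grey) and all 18404 genes (light grey). The tallest members' bar is the 61.2% called lower with siRNA 2, beside 26.9% of the brighter genes and 17.4% of all genes.

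**Figure D2:**
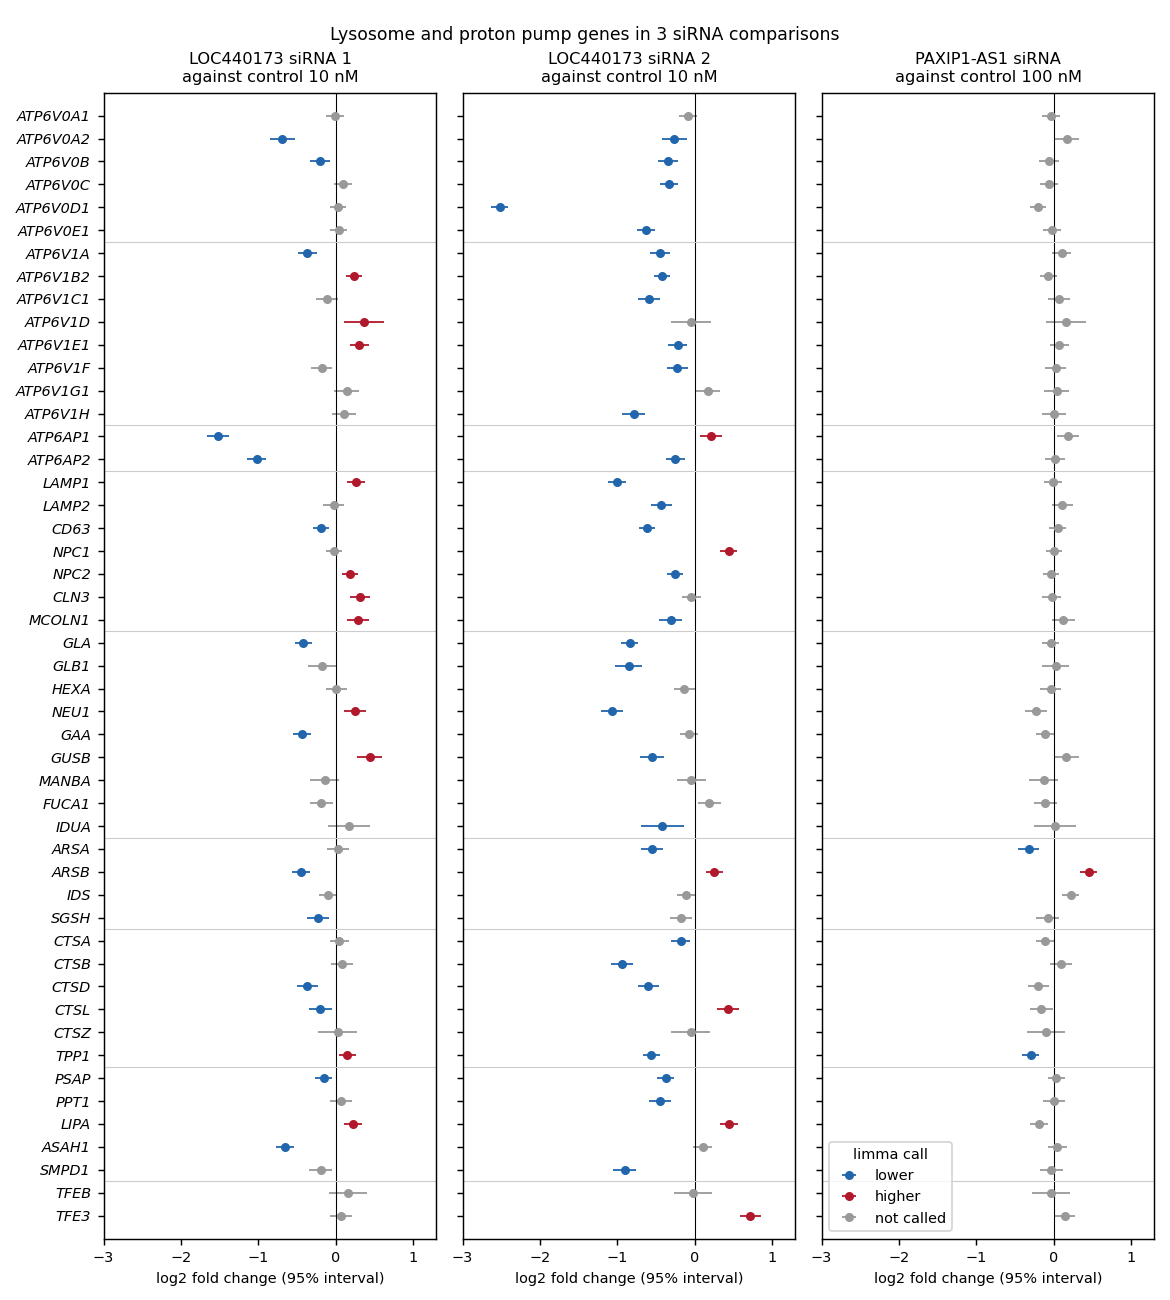
Log2 fold change of each of the 49 members, ordered by role, against the control siRNA of the same dose; points are the limma estimates, bars their 95% intervals, and colours the calls (blue lower, red higher, grey not called). Most points in the siRNA 2 panel lie left of 0 with ATP6V0D1 at -2.52, siRNA 1 spreads both ways with ATP6AP1 at -1.52, and 3 points are coloured in the PAXIP1-AS1 panel.

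Promoters from RefSeq (GRCh38.p14), 250 bases before to 50 after the gene start, matched 36 of the 49 members. ATP6V0E1, ATP6V1A, ATP6V1B2, ATP6V1C1, ATP6V1H, LAMP2, HEXA, MANBA, ARSA, SGSH, CTSB, PSAP and ASAH1 were unmatched. The E-box CACGTG, which reads the same on both strands, was found in 11 of the 36 (30.6%). It was in 8.88% of the 14230 promoters of tested genes and in 7.43% of all 27305 promoters of the same length. The longer TCACGTGA, which also reads the same on both strands and always holds a CACGTG, was found in 7 members (19.4%). It was in 1.48% of the promoters of tested genes and 1.04% of all promoters. The promoters of the 3 genes that fell 2-fold or more with siRNA 2 are shown with that of ATP6AP1, the gene that fell most with siRNA 1. They lie at chr16:67481108-67481407 (minus strand), chr13:113296989-113297288 (plus strand), chr6:31862772-31863071 (minus strand) and chrX:154428427-154428726 (plus strand), and capitals mark each CACGTG.
ATP6V0D1: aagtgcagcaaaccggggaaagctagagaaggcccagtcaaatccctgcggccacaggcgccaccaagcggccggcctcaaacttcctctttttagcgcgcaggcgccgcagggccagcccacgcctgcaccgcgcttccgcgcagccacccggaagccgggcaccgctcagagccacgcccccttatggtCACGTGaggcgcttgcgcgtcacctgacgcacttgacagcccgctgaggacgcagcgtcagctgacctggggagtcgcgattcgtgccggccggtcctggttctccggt
LAMP1: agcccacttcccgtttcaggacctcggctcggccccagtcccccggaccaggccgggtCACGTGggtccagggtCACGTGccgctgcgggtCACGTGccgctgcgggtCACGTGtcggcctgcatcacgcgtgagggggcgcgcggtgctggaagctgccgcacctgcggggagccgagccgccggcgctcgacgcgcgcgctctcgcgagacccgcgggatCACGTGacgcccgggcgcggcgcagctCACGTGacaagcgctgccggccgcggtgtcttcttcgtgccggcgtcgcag
NEU1: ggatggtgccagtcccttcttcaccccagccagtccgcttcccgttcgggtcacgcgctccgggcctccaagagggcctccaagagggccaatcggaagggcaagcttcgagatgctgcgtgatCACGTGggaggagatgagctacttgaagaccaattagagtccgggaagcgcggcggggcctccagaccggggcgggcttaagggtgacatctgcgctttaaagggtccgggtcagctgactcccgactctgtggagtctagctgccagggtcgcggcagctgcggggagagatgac
ATP6AP1: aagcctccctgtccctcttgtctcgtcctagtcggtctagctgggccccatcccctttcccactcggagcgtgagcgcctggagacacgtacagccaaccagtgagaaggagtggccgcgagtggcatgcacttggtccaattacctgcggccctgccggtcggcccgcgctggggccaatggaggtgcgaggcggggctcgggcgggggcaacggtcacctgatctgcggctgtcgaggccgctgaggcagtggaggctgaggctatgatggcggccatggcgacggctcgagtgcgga
ATP6V0D1 had 1 E-box, at position -59 from its start site and within a TCACGTGA. LAMP1 had 6, from position -192 on, and NEU1 had 1 at -126, while the letters CACGTG are not in the ATP6AP1 window. The other 8 members with an E-box were ATP6V0B, ATP6V1G1, CD63, CLN3, MCOLN1, GAA, CTSA and CTSD. With siRNA 2, 8 of the 11 members with an E-box fell and 0 rose (median change -0.34), and of the 25 without one 13 fell and 6 rose (median -0.22). Among all tested genes with a promoter, 22% of those with an E-box fell, beside 17.9% of those without. Split by TCACGTGA, 4 of 7 members with it and 17 of 29 without it fell. A match describes the letters in this window and is no evidence of binding.

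**Figure D3:**
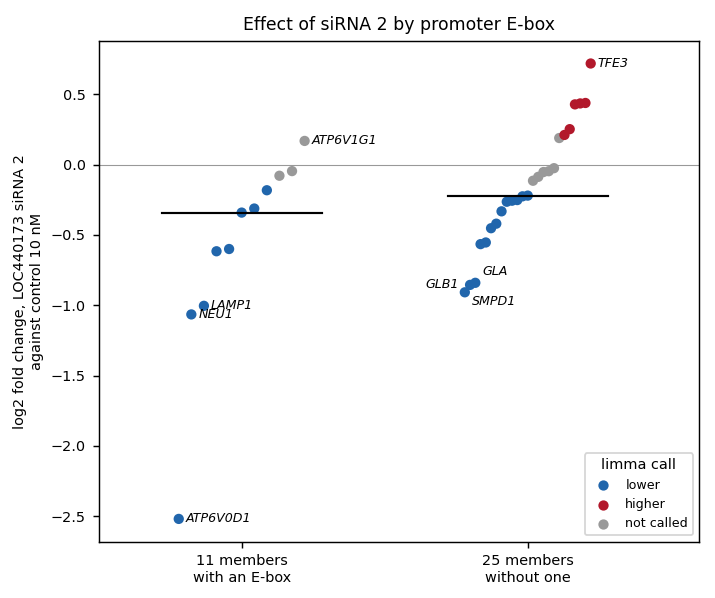
Log2 fold change with siRNA 2 for the 36 members with a RefSeq promoter, split by whether CACGTG occurs in it; each point is a gene, coloured by its limma call, and lines are medians (-0.34 with and -0.22 without an E-box). The rises, topped by TFE3, lie in the group without an E-box, and falls lie in both groups.

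The V0 sector fell with siRNA 2 in 5 of its 6 subunits (83.3%, beside 17.4% of all genes and 26.9% of the brighter genes). Of these, ATP6V0D1 fell far more than the others. ATP6V0D1 encodes the d subunit, which joins the membrane rotor ring to the V1 stalk. Its level was 11.43 and 11.42 on the arrays of the control at 10 nM, 11.43 and 11.47 with siRNA 1, and 8.91 and 8.90 with siRNA 2. It was 11.42 and 11.44 with the control at 100 nM and 11.21 and 11.25 with the PAXIP1-AS1 siRNA. The siRNA 2 arrays lay below all 8 others, a change of -2.52 (95% interval -2.63 to -2.41, adjusted p = 3.8e-07 by limma), and the direct contrast with siRNA 1 was -2.55.

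ATP6V0A2, one isoform of the large membrane subunit that lines the proton path, followed another order. Its level was 9.57 and 9.52 with the control at 10 nM, 8.94 and 8.77 with siRNA 1, and 9.23 and 9.33 with siRNA 2, and it was 9.54 and 9.52 with the control at 100 nM and 9.68 and 9.71 with the PAXIP1-AS1 siRNA. Both LOC440173 groups lay below the control without overlap, by 0.69 and 0.26, and it was higher with siRNA 2 than with siRNA 1 by 0.43. The siRNA 2 call was lost in 4 of 18 alternatives (adjusted p 0.0737 to 0.115), among them leaving out replicate 1 of the control at 10 nM or replicate 1 of siRNA 2. Another isoform, ATP6V0A1, was not called with either siRNA (changes of -0.01 and -0.09). The proteolipid genes ATP6V0B and ATP6V0C, whose products build the rotor ring, fell with siRNA 2 by 0.34 and 0.33, and the small subunit gene ATP6V0E1 fell by 0.63. With siRNA 1, ATP6V0B fell by 0.21, a call lost without replicate 2 of the control at 10 nM or without either siRNA 1 array (adjusted p up to 0.124), while ATP6V0C (0.10), ATP6V0D1 (0.03) and ATP6V0E1 (0.04) were not called. In the direct contrast ATP6V0C was lower with siRNA 2 by -0.43 and ATP6V0E1 by -0.67, and ATP6V0A1 (-0.08) and ATP6V0B (-0.13) were not called.

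The V1 sector fell with siRNA 2 in 6 of 8 subunits (75%, beside 17.4% of all genes and 26.9% of the brighter genes). With siRNA 1, 3 of the 8 rose (37.5%, beside 12.1% of all genes and 17.2% of the brighter genes). The regulatory subunit gene ATP6V1H fell most with siRNA 2, by 0.79, to 57.8% of the control level. ATP6V1C1, whose product ties the stator stalks together, fell by 0.60, ATP6V1A, the catalytic subunit, by 0.45, and ATP6V1B2, its non-catalytic partner in the ring, by 0.42. ATP6V1F, of the central stalk, and ATP6V1E1, of the peripheral stalks, fell by 0.23 and 0.22. The ATP6V1F call was lost in 4 of 18 alternatives (adjusted p 0.0692 to 0.152), among them leaving out replicate 1 of the control at 10 nM or replicate 2 of siRNA 2. The ATP6V1E1 call was lost in 3 (0.0665 to 0.116), among them leaving out replicate 2 of that control or replicate 1 of siRNA 2. ATP6V1D, the rotor shaft (-0.05), and ATP6V1G1, of the peripheral stalks (0.17), were not called.

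With siRNA 1, ATP6V1A fell by 0.37, and ATP6V1D, ATP6V1E1 and ATP6V1B2 rose by 0.36, 0.31 and 0.24. The level of ATP6V1D was 9.24 and 9.51 with the control at 10 nM, 9.69 and 9.78 with siRNA 1, 9.23 and 9.43 with siRNA 2, 9.36 and 9.57 with the control at 100 nM, and 9.64 and 9.60 with the PAXIP1-AS1 siRNA. Its control arrays lay far apart, and its call (adjusted p = 0.0442 by limma) was lost in 7 of 18 alternatives (0.0687 to 0.181), among them leaving out replicate 1 of the control at 10 nM, either siRNA 1 array or either PAXIP1-AS1 array. The level of ATP6V1E1 was 10.38 and 10.45 with the control at 10 nM, 10.71 and 10.73 with siRNA 1, 10.17 and 10.21 with siRNA 2, 10.36 and 10.44 with the control at 100 nM, and 10.47 on both PAXIP1-AS1 arrays. Here the siRNA 1 arrays were the highest and the siRNA 2 arrays the lowest of all 10. ATP6V1C1 (-0.11), ATP6V1F (-0.18), ATP6V1G1 (0.14) and ATP6V1H (0.11) were not called with siRNA 1. In the direct contrast ATP6V1H (-0.90), ATP6V1B2 (-0.66), ATP6V1E1 (-0.53), ATP6V1C1 (-0.48) and ATP6V1D (-0.41) were lower with siRNA 2, and ATP6V1A (-0.08), ATP6V1F (-0.04) and ATP6V1G1 (0.03) were not called. The ATP6V1D difference was lost without either siRNA 1 array or without replicate 1 of siRNA 2 (adjusted p 0.0603 to 0.111).

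The accessory subunit genes carried the largest falls with siRNA 1. ATP6AP1 encodes Ac45, which helps assemble and target the pump, and its level was 11.81 and 11.66 with the control at 10 nM, 10.22 and 10.20 with siRNA 1, and 11.97 and 11.93 with siRNA 2. It was 11.67 and 11.72 with the control at 100 nM and 11.91 and 11.85 with the PAXIP1-AS1 siRNA. Only the siRNA 1 arrays were low, at 34.8% of the control level (change -1.52, 95% interval -1.67 to -1.38, adjusted p = 7.16e-06 by limma). The rise with siRNA 2 of 0.21 was lost in 13 of 18 alternatives (adjusted p 0.0502 to 0.174), among them leaving out any array other than replicate 1 of the control at 10 nM.

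ATP6AP2, also known as the prorenin receptor and another assembly partner of the pump, was at 11.47 on both arrays of the control at 10 nM, 10.42 and 10.47 with siRNA 1, and 11.16 and 11.28 with siRNA 2. It was 11.45 and 11.42 with the control at 100 nM and 11.46 and 11.44 with the PAXIP1-AS1 siRNA. The siRNA 1 arrays were lowest, at 49.2% of the control level (-1.02), and the siRNA 2 arrays lay between them and the rest (-0.25, lost in 2 alternatives, of which one left out replicate 1 of siRNA 2, adjusted p 0.055 to 0.0977). In the direct contrast both genes were higher with siRNA 2, ATP6AP1 by 1.73 and ATP6AP2 by 0.77.

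**Figure D4:**
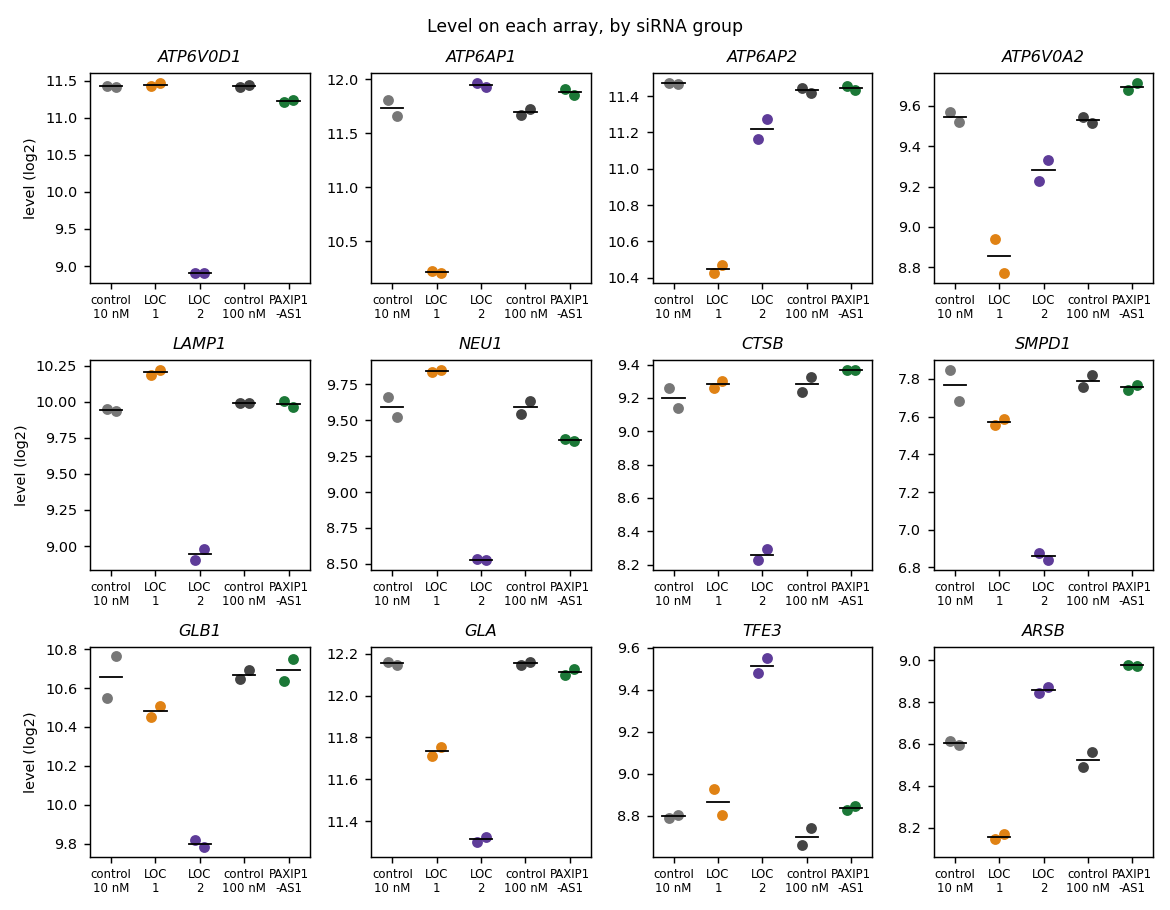
Log2 level on each array (points) with the group mean (line) for 12 members, in the order control 10 nM, LOC440173 siRNA 1, LOC440173 siRNA 2, control 100 nM and PAXIP1-AS1 siRNA; each panel has its own vertical range, so heights do not compare between panels. ATP6V0D1 is low on the siRNA 2 arrays alone (8.91 and 8.90), ATP6AP1 on the siRNA 1 arrays alone (10.22 and 10.20), and TFE3 is high on the siRNA 2 arrays.

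Of the 7 membrane and cholesterol export genes, 5 fell and 1 rose with siRNA 2, and 4 rose and 1 fell with siRNA 1. The siRNA 2 falls were 71.4%, beside 17.4% of all and 26.9% of the brighter genes, and the rise 14.3%, beside 12.5% and 20.2%. The siRNA 1 rises were 57.1%, beside 12.1% of all and 17.2% of the brighter genes, and the fall 14.3%, beside 16.7% and 26.6%. LAMP1 encodes an abundant glycoprotein of the lysosomal membrane, and its level was 9.95 and 9.94 with the control at 10 nM, 10.19 and 10.22 with siRNA 1, and 8.90 and 8.98 with siRNA 2. It was 9.99 on both arrays with the control at 100 nM and 10.00 and 9.96 with the PAXIP1-AS1 siRNA. The siRNA 2 arrays were at 49.9% of the control level (-1.004, adjusted p = 1.16e-05 by limma) and the siRNA 1 arrays above every control array (0.26). Its relative LAMP2 fell with siRNA 2 by 0.44, as did the tetraspanin gene CD63 by 0.62, the calcium channel gene MCOLN1 by 0.31 and NPC2 by 0.26.

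NPC1 and NPC2 pass cholesterol out of the lysosome in turn, and they differed in direction with siRNA 2. NPC1 was at 10.37 and 10.38 with the control at 10 nM, 10.37 and 10.34 with siRNA 1, and 10.82 and 10.80 with siRNA 2, and at 10.36 and 10.37 with the control at 100 nM and 10.38 and 10.36 with the PAXIP1-AS1 siRNA. The siRNA 2 arrays alone were high (0.44, adjusted p = 0.000259 by limma). CLN3, mutated in a childhood neuronal storage disease, was at 8.97 and 8.90 with the control at 10 nM, 9.23 and 9.25 with siRNA 1, and 8.90 and 8.87 with siRNA 2. It was 8.83 and 8.82 with the control at 100 nM and 8.85 and 8.75 with the PAXIP1-AS1 siRNA, so the siRNA 1 arrays were the highest (0.31), and with siRNA 2 it was not called (-0.05).

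With siRNA 1, MCOLN1 rose by 0.29, NPC2 by 0.18 and CD63 fell by 0.19, and LAMP2 (-0.03) and NPC1 (-0.02) were not called. The CD63 and NPC2 calls were lost without replicate 2 of the control at 10 nM or either siRNA 1 array, and that of MCOLN1 without the same control array or replicate 2 of siRNA 1 (adjusted p 0.0583 to 0.098, 0.0693 to 0.114 and 0.0649 to 0.0845 over the alternatives that lost them). The direct contrast called all 7 genes: LAMP1 (-1.26), MCOLN1 (-0.60), NPC2 (-0.44), CD63 (-0.42), LAMP2 (-0.41) and CLN3 (-0.36) were lower with siRNA 2, and NPC1 was higher (0.46).

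Among the 9 glycosidases, which remove sugars from glycoproteins, glycolipids and glycosaminoglycans, 5 fell with siRNA 2, and 2 fell and 2 rose with siRNA 1. The siRNA 2 falls were 55.6%, beside 17.4% of all genes and 26.9% of the brighter genes. The siRNA 1 falls and rises were 22.2% each, beside 16.7% and 12.1% of all genes and 26.6% and 17.2% of the brighter genes. NEU1, the lysosomal sialidase, was at 9.66 and 9.52 with the control at 10 nM, 9.83 and 9.85 with siRNA 1, and 8.53 on both siRNA 2 arrays. It was 9.54 and 9.64 with the control at 100 nM and 9.37 and 9.35 with the PAXIP1-AS1 siRNA. The siRNA 2 level was 47.8% of the control (-1.07, adjusted p = 1.99e-05 by limma). The siRNA 1 rise of 0.25 was lost without replicate 2 of the control at 10 nM or either siRNA 1 array (adjusted p 0.074 to 0.091 over 4 alternatives).

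GLB1, the lysosomal beta-galactosidase, was at 10.55 and 10.76 with the control at 10 nM, 10.45 and 10.51 with siRNA 1, 9.82 and 9.78 with siRNA 2, 10.64 and 10.69 with the control at 100 nM, and 10.64 and 10.75 with the PAXIP1-AS1 siRNA. The siRNA 2 arrays were the lowest (-0.86), and siRNA 1 was not called (-0.18). GLA, the alpha-galactosidase deficient in Fabry disease, fell with siRNA 2 by 0.84 and with siRNA 1 by 0.42. GUSB, beta-glucuronidase, was at 8.95 and 9.08 with the control at 10 nM, 9.41 and 9.50 with siRNA 1, 8.48 and 8.44 with siRNA 2, 8.94 and 9.07 with the control at 100 nM, and 9.16 and 9.18 with the PAXIP1-AS1 siRNA. It was the largest rise with siRNA 1 among the members (0.44) and fell with siRNA 2 (-0.55). The arrays of siRNA 1, siRNA 2 and their control at 10 nM did not overlap.

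GAA, the acid glucosidase that digests glycogen, was at 7.97 and 7.95 with the control at 10 nM, 7.56 and 7.50 with siRNA 1, 7.86 and 7.90 with siRNA 2, 8.02 and 8.05 with the control at 100 nM, and 7.90 and 7.95 with the PAXIP1-AS1 siRNA. Its siRNA 1 arrays were the lowest (-0.43), and siRNA 2 was not called (-0.08). IDUA, an iduronidase of glycosaminoglycan breakdown, fell with siRNA 2 by 0.42 from a level below the median of all genes. That call was lost in 8 of 18 alternatives (adjusted p 0.0521 to 0.144), among them leaving out replicate 1 of the control at 10 nM, either siRNA 2 array or either PAXIP1-AS1 array. The alternative without genes below the median level did not test IDUA. HEXA (-0.14), MANBA (-0.04) and FUCA1 (0.19), which act on hexosamine, mannose and fucose residues, were not called with siRNA 2, nor HEXA (0.00), MANBA (-0.14), FUCA1 (-0.19), IDUA (0.17) and GLB1 with siRNA 1. In the direct contrast NEU1 (-1.31), GUSB (-0.99), GLB1 (-0.68), IDUA (-0.59) and GLA (-0.42) were lower with siRNA 2, FUCA1 (0.38) and GAA (0.35) were higher, and HEXA (-0.14) and MANBA (0.10) were not called.

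The 4 sulfatases, which remove sulfate groups from glycosaminoglycans and sulfolipids, went apart from each other. ARSB was at 8.62 and 8.60 with the control at 10 nM, 8.15 and 8.17 with siRNA 1, and 8.84 and 8.87 with siRNA 2. It was 8.49 and 8.56 with the control at 100 nM and 8.98 and 8.97 with the PAXIP1-AS1 siRNA, so it was lower than its control with siRNA 1 (-0.45) and higher with siRNA 2 (0.25) and the PAXIP1-AS1 siRNA (0.45). ARSA, which digests sulfatide, was at 8.14 and 8.21, then 8.14 and 8.25, then 7.67 and 7.58 in the control at 10 nM, siRNA 1 and siRNA 2, and at 8.07 and 8.06 with the control at 100 nM and 7.72 and 7.76 with the PAXIP1-AS1 siRNA. It fell with siRNA 2 by 0.55 and was not called with siRNA 1 (0.02). SGSH, of heparan sulfate breakdown, fell with siRNA 1 by 0.23, a call lost in 6 of 18 alternatives (adjusted p 0.0513 to 0.108), among them leaving out replicate 1 of the control at 10 nM or either siRNA 1 array, and with siRNA 2 it was not called (-0.18). The direct contrast gave 0.70 for ARSB and -0.58 for ARSA, and SGSH (0.05) was not called.

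IDS, the iduronate sulfatase, was not called by its brighter probe set with siRNA 1 (-0.10), with siRNA 2 (-0.11) or in the direct contrast (-0.01). Its other probe set gave -0.41 with siRNA 2 (adjusted p = 0.00378 by limma over all probe sets) and -0.04 with siRNA 1, so the probe sets disagreed for siRNA 2.

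Of the 6 proteases, 4 fell (66.7%, beside 17.4% of all genes) and 1 rose (16.7%, beside 12.5%) with siRNA 2. Of the brighter genes, 26.9% fell and 20.2% rose with this siRNA. CTSB, a cysteine cathepsin, was at 9.26 and 9.14 with the control at 10 nM, 9.26 and 9.30 with siRNA 1, 8.23 and 8.29 with siRNA 2, 9.23 and 9.33 with the control at 100 nM, and 9.37 on both PAXIP1-AS1 arrays. The siRNA 2 level was 52.2% of the control (-0.94), and siRNA 1 was not called (0.08). CTSL, another cysteine cathepsin, went the other way: it was 8.92 and 9.01 with the control at 10 nM, 8.82 and 8.71 with siRNA 1, 9.36 and 9.42 with siRNA 2, 9.05 and 9.15 with the control at 100 nM, and 8.92 and 8.94 with the PAXIP1-AS1 siRNA. It rose with siRNA 2 by 0.43 and fell with siRNA 1 by 0.20, the latter a call lost in 13 of 18 alternatives (adjusted p 0.0559 to 0.239), among them leaving out any array other than replicate 1 of the control at 10 nM.

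The aspartic protease gene CTSD fell with siRNA 2 by 0.60 and with siRNA 1 by 0.37. TPP1, a tripeptidyl peptidase, fell with siRNA 2 by 0.57 and rose with siRNA 1 by 0.15, the rise being lost in 13 of 18 alternatives (adjusted p 0.0611 to 0.218), among them leaving out any of the 10 arrays. CTSA, the carboxypeptidase that protects NEU1 and GLB1 in a complex, fell with siRNA 2 by 0.18, a call lost in 13 alternatives, among them leaving out any of the 10 arrays (0.0506 to 0.172), and with siRNA 1 it was not called (0.04). CTSZ, below the median level, was called with neither (-0.05 with siRNA 2 and 0.02 with siRNA 1). In the direct contrast CTSB (-1.02), TPP1 (-0.72), CTSD (-0.23) and CTSA (-0.22) were lower with siRNA 2, CTSL was higher (0.63) and CTSZ (-0.07) was not called. The difference for CTSD was lost without replicate 2 of siRNA 1 or of siRNA 2 (adjusted p 0.0767 to 0.0972), and that for CTSA without replicate 2 of siRNA 1 or replicate 1 of siRNA 2 (0.0571 to 0.0719).

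Of the 5 lipid enzymes and activators, 3 fell (60%, beside 17.4% of all genes) and 1 rose (20%, beside 12.5%) with siRNA 2. Among the brighter genes these shares were 26.9% and 20.2%. SMPD1, acid sphingomyelinase, was at 7.85 and 7.68 with the control at 10 nM, 7.56 and 7.58 with siRNA 1, 6.88 and 6.84 with siRNA 2, 7.76 and 7.82 with the control at 100 nM, and 7.74 and 7.77 with the PAXIP1-AS1 siRNA. The siRNA 2 arrays were the lowest (-0.91), and siRNA 1 was not called (-0.20). ASAH1, acid ceramidase, which takes over the next step of sphingomyelin breakdown, was instead low with siRNA 1: it was 10.01 and 10.06 with the control at 10 nM, 9.35 and 9.40 with siRNA 1, 10.11 and 10.16 with siRNA 2, 10.03 and 10.06 with the control at 100 nM, and 10.06 and 10.12 with the PAXIP1-AS1 siRNA. It fell with siRNA 1 by 0.66 and was not called with siRNA 2 (0.10).

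LIPA, the acid lipase that frees cholesterol from its esters, rose with both LOC440173 siRNAs. It was 9.90 and 9.98 with the control at 10 nM, 10.16 and 10.17 with siRNA 1, 10.37 and 10.39 with siRNA 2, 9.94 and 9.99 with the control at 100 nM, and 9.78 on both PAXIP1-AS1 arrays. The rises were 0.22 with siRNA 1 (lost in 3 alternatives, among them leaving out either siRNA 1 array, adjusted p 0.059 to 0.0798) and 0.44 with siRNA 2. PPT1, a thioesterase that removes palmitate from proteins, fell with siRNA 2 by 0.45 and was not called with siRNA 1 (0.07). PSAP, the precursor of the saposin activators, fell with siRNA 2 by 0.37 and with siRNA 1 by 0.16, the latter lost in 12 of 18 alternatives (adjusted p 0.0558 to 0.189), among them leaving out any array outside the siRNA 2 group. The direct contrast called all 5: SMPD1 (-0.71), PPT1 (-0.52) and PSAP (-0.22) were lower with siRNA 2, and ASAH1 (0.76) and LIPA (0.22) were higher. The PSAP difference was lost without replicate 2 of siRNA 1 (adjusted p = 0.0539 by limma) and the LIPA difference without its replicate 1 (0.0529).

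Of the transcription factor genes, TFE3 rose with siRNA 2 while TFEB was not called in any comparison. TFE3 was at 8.79 and 8.80 with the control at 10 nM, 8.92 and 8.80 with siRNA 1, 9.48 and 9.55 with siRNA 2, 8.66 and 8.74 with the control at 100 nM, and 8.83 and 8.85 with the PAXIP1-AS1 siRNA. The siRNA 2 arrays lay above all others, at 0.72 over the control (95% interval 0.58 to 0.86, adjusted p = 9.84e-05 by limma) and 0.65 over siRNA 1. This was the largest rise among the members. TFEB was at 7.06 and 6.70 with the control at 10 nM, 7.04 and 7.03 with siRNA 1, 6.85 and 6.86 with siRNA 2, 6.96 and 6.84 with the control at 100 nM, and 6.87 and 6.86 with the PAXIP1-AS1 siRNA. Its control arrays at 10 nM were the farthest apart of any member in that group (SD 0.25, n = 2), and the siRNA 2 change of -0.02 had a 95% interval of -0.27 to 0.22. The arrays give RNA levels and say nothing of where either protein was in the cell.

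The PAXIP1-AS1 siRNA changed few of these genes: ARSB rose by 0.45 (adjusted p = 0.00345 by limma), ARSA fell by 0.33 (0.0255) and TPP1 fell by 0.30 (0.0151). The single rise was 2.04% of the members, beside 2.86% of all genes called higher, and the 2 falls were 4.08%, beside 1.76% called lower. Among the 44 brighter members these were 2.27% and 4.55%, beside 5.01% and 2.83% of the brighter genes. The members' median change was -0.01, as was that of all genes, and 12 of the 49 members had an unadjusted p under 0.05, beside 3357 of all 18404 genes and 2551 of the 9202 at or above the median level. TPP1 was at 9.83 and 9.85 with the control at 10 nM, 9.96 and 10.02 with siRNA 1, 9.29 and 9.26 with siRNA 2, 9.75 and 9.77 with the control at 100 nM, and 9.46 and 9.47 with the PAXIP1-AS1 siRNA. For all 3 genes the PAXIP1-AS1 arrays did not overlap the control at 100 nM. The genes were picked by their calls in this same comparison, so this adds no support. Leaving out any of the 4 arrays compared ended the ARSA and TPP1 calls and left 0 falls (adjusted p 0.0962 to 0.163), while ARSB was called in all 18 alternatives. IDS (0.22, adjusted p = 0.0507), ATP6V0D1 (-0.20, 0.0524), LIPA (-0.19, 0.08) and NEU1 (-0.23, 0.0802) were not called. None of the 14 V0 and V1 subunits was called by limma, and 2 of them had an unadjusted p under 0.05.

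No member was called between the 2 control doses. Differences between 100 nM and 10 nM ran from -0.13 to 0.14 over the 49 members, and limma called 0 of them, beside 0% of all genes. At an unadjusted p under 0.05, 0 members and 692 of 18404 genes passed.

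The effects of the LOC440173 and PAXIP1-AS1 siRNAs, each taken against its own control, were also set against each other. With siRNA 2 the effect was more negative for 26 members (53.1%, beside 11.2% of all genes) and more positive for 4 (8.16%, beside 6.04%). Among the 44 brighter members these were 56.8% and 9.09%, beside 17.9% and 9.39% of the brighter genes. The pump genes more negative with siRNA 2 were ATP6V0D1 (-2.32), ATP6V1H (-0.79), ATP6V1C1 (-0.66), ATP6V0E1 (-0.61), ATP6V1A (-0.55), ATP6V0A2 (-0.43), ATP6V1B2 (-0.35), ATP6V1E1 (-0.29), ATP6V0B (-0.27), ATP6AP2 (-0.27) and ATP6V0C (-0.26). The membrane genes were LAMP1 (-0.996), CD63 (-0.67), LAMP2 (-0.54) and MCOLN1 (-0.44). The enzymes and activators were CTSB (-1.03), GLB1 (-0.88), SMPD1 (-0.87), NEU1 (-0.83), GLA (-0.80), GUSB (-0.72), PPT1 (-0.46), PSAP (-0.41), CTSD (-0.40), IDS (-0.33) and TPP1 (-0.27). LIPA (0.63), CTSL (0.59), TFE3 (0.58) and NPC1 (0.43) were more positive. Leaving out 1 array gave 18 to 24 members with a more negative effect, and 21 of the 30 calls in both directions held in all 18 alternatives. Among the 21, SMPD1 was not tested in the alternative without genes below the median level. ATP6V0B lost its call in 14 of the 18 alternatives, ATP6AP2 in 13, ATP6V0C in 12, ATP6V1E1 in 10 and TPP1 in 9, with adjusted p by limma of up to 0.168, 0.151, 0.118, 0.108 and 0.105. ATP6V0A2 lost it in 6 (up to 0.0771), in each case with 1 array left out: replicate 1 of the control at 10 nM or of siRNA 2, or either array of the control at 100 nM or of the PAXIP1-AS1 siRNA. MCOLN1 was not called without replicate 1 of the control at 100 nM or without either PAXIP1-AS1 array (0.0513 to 0.0554), IDS without replicate 1 of that control or replicate 2 of PAXIP1-AS1 (0.0576 and 0.0677), and CTSD without replicate 2 of that control or replicate 1 of PAXIP1-AS1 (0.0593 and 0.0638).

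With siRNA 1 the effect was more negative than that of the PAXIP1-AS1 siRNA for 10 members (20.4%, beside 11% of all genes) and more positive for 7 (14.3%, beside 5.82%). Among the 44 brighter members these were 22.7% and 15.9%, beside 18.4% and 8.52% of the brighter genes. The more negative share was thus near that background. The more negative were ATP6AP1 (-1.71), ATP6AP2 (-1.04), ARSB (-0.90), ATP6V0A2 (-0.85), ASAH1 (-0.70), ATP6V1A (-0.47), GLA (-0.38), GAA (-0.32), IDS (-0.32) and CD63 (-0.24). The more positive were NEU1 (0.48), TPP1 (0.45), LIPA (0.41), ARSA (0.35), CLN3 (0.34), ATP6V1B2 (0.31) and LAMP1 (0.27). Of these 17 calls, 10 held in all 18 alternatives. CD63 lost its call in 13, among them each of the 10 that left out 1 array (adjusted p 0.0574 to 0.137 by limma), LAMP1 in 9 (up to 0.138), ARSA in 7 (up to 0.0965), CLN3 in 7 (up to 0.0896), GAA in 5 (up to 0.0859), IDS in 5 (up to 0.082) and ATP6V1B2 in 4 (up to 0.067). The count of 7 fell to 4 without replicate 1 of siRNA 1, of the control at 100 nM or of the PAXIP1-AS1 siRNA, to 3 without replicate 2 of siRNA 1 or of that control, and to 4 without replicate 2 of the PAXIP1-AS1 siRNA.

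Other genes of the same pathways were taken as whole lists and are set beside the shares of all genes. Of the genes at or above the median level, 26.9% fell and 20.2% rose with siRNA 2, and 26.6% and 17.2% with siRNA 1. The PAXIP1-AS1 siRNA lowered 1.76% of all genes and raised 2.86%. Of 28 measured further hydrolases and cofactors (36 listed), 16 fell and 0 rose with siRNA 2 (median change -0.26), and 11 fell and 2 rose with siRNA 1 (median -0.18). Falls with siRNA 2 and siRNA 1 were 57.1% and 39.3%, beside 17.4% and 16.7% of all genes. Rises were 0% and 7.14%, beside 12.5% and 12.1%. With siRNA 2 the falls with the smallest p were ACP2 (-0.96), lysosomal acid phosphatase, IFI30 (-0.98), a thiol reductase, and CTSH (-1.11), a cysteine cathepsin. With siRNA 1 they were LGMN (-1.47), the asparaginyl endopeptidase legumain, CTSH (-0.69) and NAAA (-0.65), an acid amidase. The PAXIP1-AS1 siRNA lowered 2, IFI30 (-0.33) and the phospholipase gene PLA2G15 (-0.24).

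Of 15 measured further V-ATPase subunits and assembly factors (20 listed), 4 fell and 2 rose with siRNA 2 (median 0.04), and 5 fell and 1 rose with siRNA 1 (median -0.06). Rises with siRNA 2 and siRNA 1 were 13.3% and 6.67%, beside 12.5% and 12.1% of all genes. Falls with these siRNAs were 26.7% and 33.3%, beside 17.4% and 16.7%. VMA21, which chaperones assembly of the V0 sector, fell with both, by 0.58 and 0.79. The others with the smallest p were ATP6V1C2 (-0.66), a tissue-restricted isoform, and WDR7 (-0.23) with siRNA 2, and OXR1 (-0.73) and DMXL1 (-0.50) with siRNA 1. The PAXIP1-AS1 siRNA changed 0 of the 15 by limma, and 0 had an unadjusted p under 0.05. Of 24 measured further membrane proteins and channels (28 listed), 12 fell and 6 rose with siRNA 2 (median -0.20), and 3 fell and 7 rose with siRNA 1 (median 0.03). Here the falls were 50% and 12.5%, beside 17.4% and 16.7% of all genes, and the rises 25% and 29.2%, beside 12.5% and 12.1%. CTNS, the cystine exporter (-0.82), SPNS1, a lysophospholipid transporter (-0.76), and PIP4P1, a phosphoinositide phosphatase (-0.54), had the smallest p with siRNA 2. LAPTM4B (-0.81), the peptide transporter gene SLC15A4 (0.46) and the cation channel gene TPCN1 (-0.51) did so with siRNA 1. With the PAXIP1-AS1 siRNA MFSD8 rose (0.40) and TPCN1 fell (-0.40).

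Of 17 measured genes that sort enzymes to the lysosome (18 listed), 7 fell and 2 rose with siRNA 2 (median -0.05), and 5 fell and 3 rose with siRNA 1 (median -0.01). Falls with siRNA 2 and siRNA 1 were 41.2% and 29.4%, beside 17.4% and 16.7% of all genes. Rises were 11.8% and 17.6%, beside 12.5% and 12.1%. IGF2R, a mannose 6-phosphate receptor that carries hydrolases from the Golgi, fell with siRNA 2 (-0.73), as did the adaptor gene AP1G1 (-0.50), and GNPTAB, whose product starts the mannose 6-phosphate tag, rose (0.49). With siRNA 1, AP3M1, of another sorting adaptor (-0.69), and CLN6 (-0.45) fell, and GNPTG, the partner of GNPTAB, rose (0.63). The PAXIP1-AS1 siRNA lowered CLN6 (-0.28) and CLN8 (-0.24), 2 of the 17. Of 26 measured genes of mTORC1 and TFEB regulation (27 listed), 8 fell and 6 rose with siRNA 2 (median 0.02), and 4 fell and 7 rose with siRNA 1 (median 0.09). Here the falls were 30.8% and 15.4%, beside 17.4% and 16.7% of all genes, and the rises 23.1% and 26.9%, beside 12.5% and 12.1%. PPP3CA, a calcineurin subunit that can activate TFEB (-1.22), RRAGD, a GTPase that brings mTORC1 to the lysosome (-1.03), and YWHAZ, an adaptor that binds phosphorylated proteins (-0.67), fell with siRNA 1. With siRNA 2, LAMTOR5 (-0.89), of the Ragulator scaffold, and TSC2 (-0.59), an inhibitor of mTORC1, fell, and RRAGD rose (0.41). The PAXIP1-AS1 siRNA changed 0 of the 26 by limma, and 5 had an unadjusted p under 0.05.

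Of 33 autophagy genes, all measured, 10 fell and 5 rose with siRNA 2 (median -0.07), and 6 fell and 8 rose with siRNA 1 (median 0.08). The falls were 30.3% with siRNA 2, beside 17.4% of all and 26.9% of the brighter genes, and 18.2% with siRNA 1, beside 16.7% and 26.6%. The rises were 15.2% with siRNA 2, beside 12.5% and 20.2%, and 24.2% with siRNA 1, beside 12.1% and 17.2%. With siRNA 2, GABARAPL2 fell (-1.23) and its family member GABARAPL1 rose (0.73), both conjugated to autophagosome membranes, and ATG13, of the starting kinase complex, fell (-0.57). With siRNA 1, ATG10 (-1.05) and the protease gene ATG4A (-0.64) fell and the cargo receptor gene NBR1 rose (0.47). The PAXIP1-AS1 siRNA lowered 1, ATG13 (-0.25).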

How the data were processed

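RNA from 10 HEK-293 cultures was measured on Affymetrix arrays. The deposited values were log2 levels, 1 column per array, for 32321 probe sets. RMA and limma are named without versions in the submitters' processing notes. Array definition, filters and genome build: not given in the sources used here. The platform annotation gave 19158 probe sets a single symbol and 1388 several, and 11775 were not listed. RefSeq gene IDs changed 0 symbols. Array medians were 7.06 to 7.12, and no further scaling was applied.

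The 49 members, the roles, the pathway and marker lists and the tests were chosen with earlier results of these data known. All 10 arrays entered a limma fit (version 3.58.1, R 4.3.3) with a mean per group and eBayes (5 residual and 2.87 prior degrees of freedom), tested on simulated data. Contrasts were two-sided, with Benjamini-Hochberg adjustment over 18404 genes and a threshold of 0.05. Every called member is named. Array values are given for TFEB, TFE3 and, per comparison with a control, the 6 largest falls and 4 largest rises, and pathway genes are the 3 called with the smallest p. The number of arrays limits the precision. Alternatives left out each array, genes below the median level or the groups not compared, averaged a gene's probe sets or tested each separately, repeated the quantile normalization, or added array weights, an intensity trend with a robust prior, or the replicate number as a block. Where probe sets were tested separately, that with the smallest p stood for its gene.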

Additional observations from a re-analysis of the deposited data

Results flagged for a closer look

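For 11 members both LOC440173 siRNAs were called in opposite directions against their shared control arrays, and the direct contrast of the siRNAs was called as well (limma, adjusted over 18404 genes). How many of all genes met this rule was not counted, so the 11 cannot be read as particular to these members. Of all genes, 28.8% were called with siRNA 1, 30% with siRNA 2 and 37.1% in the direct contrast. Among genes at or above the median level these shares were 43.8%, 47.1% and 58.2%. The difference, siRNA 2 minus siRNA 1, was -1.31 for NEU1, -1.26 for LAMP1, -0.99 for GUSB, -0.72 for TPP1, -0.66 for ATP6V1B2, -0.60 for MCOLN1, -0.53 for ATP6V1E1 and -0.44 for NPC2. It was 1.73 for ATP6AP1, 0.70 for ARSB and 0.63 for CTSL. Adjusted p of the direct contrast ran from 2.17e-06 for ATP6AP1 to 0.00018 for MCOLN1. The 11 were picked by this call, so these values are no separate support. LAMP1 and GUSB kept both opposite calls against the control in all 18 alternatives. For TPP1, CTSL and ATP6AP1 the smaller of the 2 effects (0.15, -0.20 and 0.21) lost its call in 13 of the 18 each. The siRNA 1 call was lost in 4 for NEU1, 4 for NPC2, 3 for MCOLN1 and 1 for ATP6V1B2, and the siRNA 2 call in 3 for ATP6V1E1 and 1 each for NPC2, MCOLN1 and ARSB. Groups of 2 arrays were too small to test for outlying arrays.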

How the results depend on the processing

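No call of a member changed direction in any of the 18 alternatives. Called members that held in all of them were 26 of 36 with siRNA 2, 13 of 25 with siRNA 1, 33 of 38 in the direct contrast and 1 of 3 with the PAXIP1-AS1 siRNA. The called members IDUA and SMPD1, below the median level, were not tested in the alternative that left out such genes. When the fit held the compared groups alone, the 11 rises and 14 falls with siRNA 1 became 4 and 9, and the 2 PAXIP1-AS1 falls became 0, with fewer arrays behind the spread. ATP6V1B2 with siRNA 1 (adjusted p = 0.0586 by limma) and MCOLN1 (0.0643), NPC2 (0.0714) and ARSB (0.075) with siRNA 2 lost their calls in that fit alone. The 1 PAXIP1-AS1 rise became 3 with genes below the median level left out, 3 with an intensity trend and robust prior, 2 with array weights and 2 with the replicate block. Its 2 falls became 4 with another quantile normalization, 1 with probe sets tested separately, 6 without genes below the median, 5 with array weights, and 6 with the trend and robust prior. Members with a more positive siRNA 1 than PAXIP1-AS1 effect, 7, became 11 with another quantile normalization, 4 with probe sets tested separately, 11 without genes below the median, 13 with the trend and robust prior, and 11 with the replicate block. The cause was not tested. Leaving out 1 array gave 5 to 11 rises and 9 to 13 falls with siRNA 1, 5 to 6 and 26 to 29 with siRNA 2, 0 to 2 PAXIP1-AS1 falls, and 3 to 7 members with a more positive siRNA 1 than PAXIP1-AS1 effect. The alternatives for the effects set against PAXIP1-AS1 were added after the data were seen.

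Same-numbered arrays of different groups deviated together with correlations of 0.29 to 0.53 over 6 pairs of groups without siRNA 1 and 0.068 to 0.090 over 4 pairs with it. Because the labels name no shared batch or day and not every pair of groups passed 0.1, the numbers were not used as a pairing, although the groups other than siRNA 1 all passed it. With the replicate block, members called were 11 higher and 17 lower with siRNA 1, 7 and 31 with siRNA 2, 11 and 27 in the direct contrast, and 2 and 3 with the PAXIP1-AS1 siRNA, and genes called in all were 6739, 6329, 7777 and, with the PAXIP1-AS1 siRNA, 1325, against 5301, 5512, 6836 and 850 without it.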
